A study of Mus musculus with 6 samples.

Results

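The genes examined here encode the enzymes that write and erase methyl and acetyl groups on histones and those that move nucleosomes, together with a few of their partner subunits, in secondary follicles of the mouse ovary at a young and an old age. They were chosen by name: 45 genes were listed, and every array probe set annotated with only that gene's symbol was taken. The list was made with earlier results of these data known. Shares of these genes set beside those of all genes are therefore a description, not a test. Of the 45 genes, 44 were measured, by 124 of the 34945 probe sets that carried 1 gene symbol, and Ncor1 was not analysed here. Methylation was represented by 19 genes, acetylation by 12 and nucleosome remodelling by 13. The 3 young samples came from female C57BL/6J mice of 9 weeks and the 3 old samples from females of the same strain at 32 weeks, with no altered gene and no treatment named for either age. A secondary follicle holds 1 growing oocyte inside several layers of granulosa cells, and the follicles were freed from the ovary by hand, so each sample mixes both cell types with whatever theca adhered. How many mice went into 1 sample is not stated in the labels or methods, and p-values therefore measure only the spread between these samples. Levels are log2 of the RMA intensity that the authors deposited, where RMA is a method that corrects, normalizes and summarizes the probes of an Affymetrix array, and a change is the mean of the old samples minus that of the young ones on this scale.

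DNA in the nucleus is wound around histones, and the tails of these proteins carry chemical marks that differ between active and silent genes. Methyltransferases of the KMT2 family place methyl groups on H3K4 at promoters and enhancers, SETD2 places them on H3K36 along transcribed genes, SETDB1 and the EHMT pair place them on H3K9 in silent chromatin, and Polycomb repressive complex 2 places them on H3K27. Acetyltransferases such as EP300 and CREBBP open chromatin and deacetylases close it again, while SWI/SNF, ISWI and CHD motors slide or evict nucleosomes with energy from ATP. In the growing oocyte these enzymes build the chromatin state that silences transcription at the end of growth and is handed to the embryo, and in granulosa cells they set the response to hormones.

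Cell type markers and array controls differed between the ages. Of 18 oocyte markers, 14 were lower and 0 higher in old follicles, and their summed intensity was 38224 to 39628 in young and 32614 to 32952 in old follicles, a change of -0.24 on the log2 scale. Of 13 granulosa markers, 2 were lower and 2 higher. Of 18 macrophage markers, 13 were higher and 1 lower, with a summed intensity of 584 to 592 in young and 933 to 981 in old follicles. Ptprc, which defines leukocytes, was among the higher ones, by 0.82 without overlap (limma adjusted p = 0.0065). Its log2 level stayed below 5 on every array. Of 10 markers of the ovarian surface epithelium, 9 were higher and 0 lower. Of 12 markers of theca and stroma 6 were higher and 1 lower, and of 10 markers of endothelium 4 were higher and 1 lower. The lower ones were Lyz2 of the macrophage list (-0.32), the collagen gene Col1a2 of the stromal list (-0.43) and Emcn of the endothelial list (-0.50). The 3' minus 5' control value, which rises when labelled RNA lacks its 5' part, was 0.47 ± 0.014 in young and 1.51 ± 0.0048 in old follicles for Gapdh, and 1.48 ± 0.033 and 2.53 ± 0.050 for beta-actin (SD, n = 3 each). The part of these differences in the changes of the chromatin genes was not tested. In such samples, fewer cells of a type and less RNA per cell cannot be told apart.

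With 1 probe set per gene, the brightest over the 6 arrays, 13 of the 44 chromatin genes were lower in old follicles and 0 higher, where a call needed an adjusted p of at most 0.05 in limma over 18193 genes. Over all genes 13.3% were lower and 10.1% higher by the same rule. The chromatin genes lie among the brighter genes. Of the 7851 genes within their range of levels 21.5% were lower and 8.88% higher, against 29.5% and 0% of the chromatin genes. That range does not match the levels, since the median level was 9.12 for the 44 genes and 8.21 for the 7851. The part of this gap in the shares was not tested. The median change was -0.11 for the 44 genes and -0.06 for the genes within that range of levels, and 34 of the 44 values were below 0. None changed 2-fold, as 0.126% of all genes did downward and 0.638% upward, and the values ran from -0.43 for Arid1a to 0.17 for Kdm1a. In 22 of the 44 genes every old sample lay below every young sample, which held for 23.7% of all genes and 38.1% of those within their range of levels, and in 3 of the 44 every old sample lay above, against 18.9% of all genes. The count of lower genes fell to 8 when young replicate 2 or old replicate 3 was left out, and 7 of the 13 genes, Kmt2c, Setdb1, Ehmt1, Hdac4, Crebbp, Arid1a and Baz1a, were called whichever sample was left out.

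**Figure D1:**
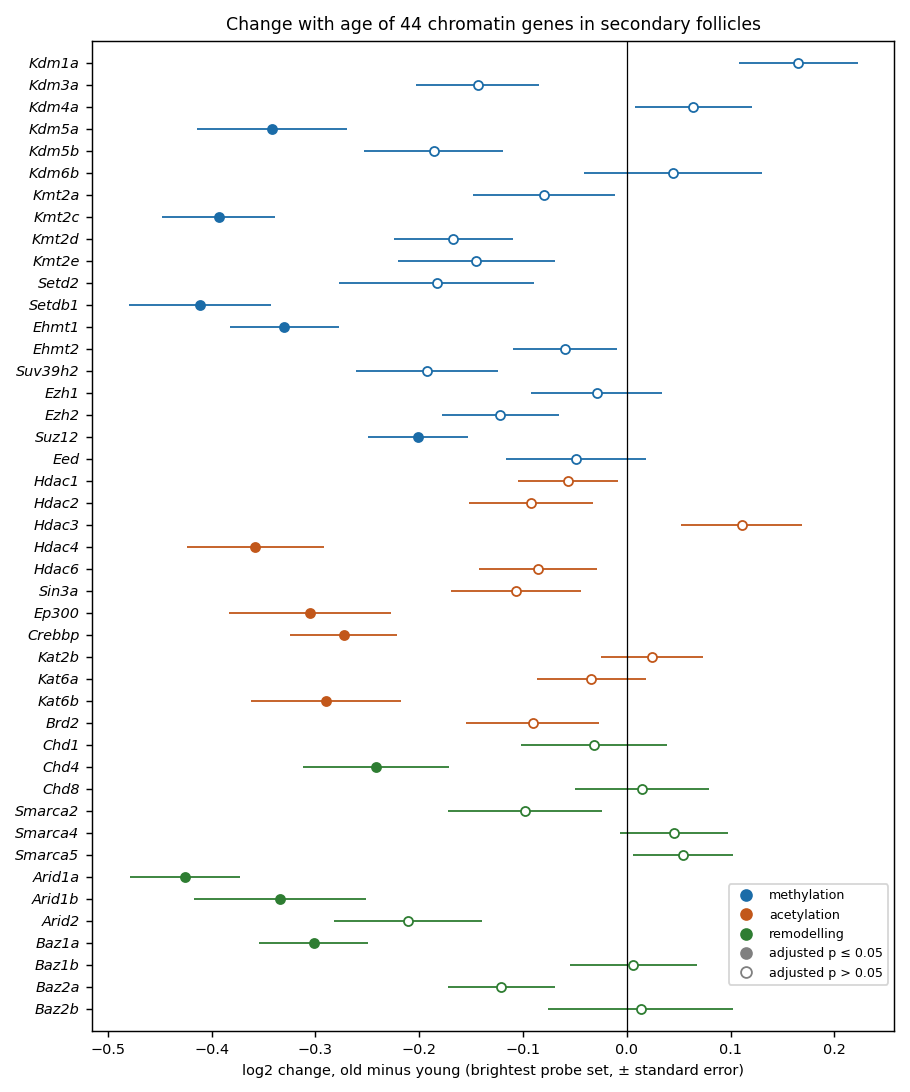
Change with age of each of the 44 chromatin genes at its brightest probe set, as old minus young on the log2 scale with the standard error as a bar. Filled points passed an adjusted p of 0.05 in limma, and all 13 of them lie left of 0, in each of the methylation, acetylation and remodelling groups.

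In the group named for H3K4 and H3K36 methyltransferases, Kmt2c alone was lower at the brightest probe set. The group also holds Kmt2e, whose product binds methylated H3K4. Kmt2c, an H3K4 methyltransferase of enhancers, measured 9.42, 9.46 and 9.45 in young follicles and 8.98, 9.07 and 9.10 in old follicles. The groups did not overlap, and the level fell by 0.39 (SE 0.05, limma adjusted p = 0.0029), that is, the intensity fell by 23.9%. Its paralog Kmt2d changed by -0.17 (adjusted p = 0.074), Setd2 by -0.18, Kmt2e by -0.15 and Kmt2a by -0.08 at the brightest probe set, and none of these 4 passed the test. All 5 values of this group were below 0.

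Of the 4 H3K9 methyltransferases, 2 were lower at the brightest probe set. Setdb1, which silences retroviral elements together with its partner TRIM28, measured 8.64, 8.51 and 8.44 in young follicles and 8.05, 8.18 and 8.12 in old follicles. All 3 old samples lay below the young ones, by 0.41 on average (SE 0.07, limma adjusted p = 0.0061), but the mean of its 3 probe sets changed by -0.24, with a limma adjusted p of 0.072. Ehmt1, which dimethylates H3K9 as a dimer with EHMT2, measured 10.06, 10.11 and 10.06 in young follicles against 9.69, 9.79 and 9.75 in old follicles. Here too the groups were apart, and the change was -0.33 (SE 0.05, limma adjusted p = 0.0050). Its dimer partner Ehmt2 changed by -0.06 with overlapping groups, and Suv39h2, an enzyme of constitutive heterochromatin, by -0.19 (adjusted p = 0.083).

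Of the 4 genes of Polycomb repressive complex 2, only Suz12, the scaffold that the catalytic subunit needs, passed the test at its brightest probe set. Suz12 measured 10.34, 10.38 and 10.39 in young follicles and 10.16, 10.19 and 10.17 in old follicles, a small change of -0.20 with little spread in either group (SE 0.05, limma adjusted p = 0.023). Leaving out 1 of 4 samples, young replicate 2 or 3 or old replicate 1 or 3, took it out of the calls, with adjusted p up to 0.084. The catalytic subunit Ezh2 had a mean level of 10.79 in young and 10.67 in old follicles and changed by -0.12 (adjusted p = 0.16). Eed, which reads the mark, changed by -0.05, and Ezh1, the alternative catalytic subunit, by -0.03.

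The histone demethylases were the methylation role with the smallest median change at the brightest probe sets, -0.05, and with values on both sides of 0. Kdm5a, which removes H3K4 methylation, measured 8.95, 8.80 and 8.73 in young follicles and 8.50, 8.55 and 8.41 in old follicles. It fell by 0.34 without overlap (SE 0.07, limma adjusted p = 0.015), and without old replicate 3 the adjusted p was 0.055. Of its 5 dimmer probe sets 1 was also lower, 1437105_at with a change of -0.54, and the other 4 changed by -0.06 to 0.08. The mean of all 6 probe sets changed by -0.13, with a limma adjusted p of 0.10, so the call depends on the choice of probe set. Kdm1a, the flavin-dependent demethylase that oocytes need, had the largest value above 0, at 10.04, 9.92 and 9.90 in young follicles and 10.13, 10.11 and 10.12 in old follicles. Its old samples all lay above the young ones, by 0.17 (SE 0.06, adjusted p = 0.077), and it passed the threshold after a further quantile normalization. The other Kdm1a probe set, 1426761_at, went the other way, with a change of -0.11, and was not called. It differed from the brightest by -0.27 (limma adjusted p = 0.054), which did not pass the threshold either, so the direction for Kdm1a is not settled. Kdm5b changed by -0.19 and Kdm3a by -0.14, while Kdm4a and Kdm6b had overlapping groups with values of 0.06 and 0.04.

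In acetylation, 3 of the 5 acetyltransferases and 1 of the 5 deacetylases were lower at the brightest probe set. Crebbp, a coactivator acetyltransferase, measured 9.35, 9.28 and 9.27 in young follicles and 9.01, 9.04 and 9.04 in old follicles. The groups were apart and the level fell by 0.27 (SE 0.05, limma adjusted p = 0.0096). Its close relative Ep300 measured 8.95, 8.82 and 8.89 in young follicles and 8.45, 8.60 and 8.70 in old follicles. It fell by 0.30 (SE 0.08, limma adjusted p = 0.029) with a wider spread, and only without old replicate 3 did the call stay, the adjusted p rising to at most 0.083 without any other sample. Kat6b, an H3 acetyltransferase of the MYST family, fell by 0.29 (SE 0.07, limma adjusted p = 0.027), with an adjusted p up to 0.092 when young replicate 2 or 3 or old replicate 2 or 3 was left out. The mean of its 3 probe sets, of which the other 2 were dim, changed by -0.11 (limma adjusted p = 0.26). Kat6a, its paralog, changed by -0.03 and Kat2b by 0.02, and both had overlapping groups.

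Hdac4, a class II deacetylase that shuttles between nucleus and cytoplasm, was the deacetylase with a call at the brightest probe set. It measured 7.97, 7.89 and 7.84 in young follicles and 7.44, 7.60 and 7.58 in old follicles, and fell by 0.36 without overlap (SE 0.07, limma adjusted p = 0.0087), while the mean of its 3 probe sets changed by -0.22 (limma adjusted p = 0.026). The class I enzymes, which sit in the main corepressor complexes, did not pass the test at that probe set: Hdac1 changed by -0.06, Hdac2 by -0.09 and Hdac3 by 0.11, and Hdac3 had every old sample above the young ones (adjusted p = 0.21). A dimmer probe set of Hdac2, 1449080_at, was lower, by 0.34. Hdac6, a cytoplasmic deacetylase, changed by -0.09. The corepressor scaffold Sin3a changed by -0.11 and the acetyl-lysine reader Brd2 by -0.09, both with overlapping groups.

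At the brightest probe sets of the remodelling genes, 2 of the 3 ARID subunits of SWI/SNF were lower, and none of the 3 SWI/SNF and ISWI ATPases passed the test. Arid1a, a DNA-binding subunit of the canonical BAF complex, had the largest change of all 44 genes at the brightest probe sets and measured 10.014, 10.003 and 9.952 in young follicles and 9.523, 9.551 and 9.620 in old follicles. The intensity fell by 25.5%, a log2 change of -0.43 (SE 0.05, limma adjusted p = 0.0021), and the groups did not overlap. Arid1b, which replaces ARID1A in other BAF complexes, measured 8.66, 8.71 and 8.85 in young follicles and 8.53, 8.28 and 8.41 in old follicles. It fell by 0.33 without overlap (SE 0.08, limma adjusted p = 0.026), with an adjusted p up to 0.078 when young replicate 2 or 3 or old replicate 2 or 3 was left out. Arid2, of the PBAF complex, changed by -0.21 (adjusted p = 0.072). The motor Smarca4 changed by 0.05, its alternative Smarca2 by -0.10 and the ISWI motor Smarca5 by 0.05, and of these Smarca5 alone had every old sample above the young ones. A second probe set of Smarca5, 1424207_at, was lower, by 0.51.

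Baz1a, the ISWI partner in the ACF complex, measured 8.93, 8.89 and 8.90 in young follicles and 8.63, 8.55 and 8.64 in old follicles. The old samples were lower throughout, by 0.30 (SE 0.05, limma adjusted p = 0.0068), and the mean of its 2 probe sets changed by -0.57 (limma adjusted p = 0.00059). Chd4, the motor of the NuRD complex, measured 9.55, 9.39 and 9.32 in young follicles and 9.22, 9.14 and 9.17 in old follicles. It fell by 0.24 (SE 0.07), with a limma adjusted p of 0.045, the largest of the 13, that held only without young replicate 3 when samples were left out and reached 0.11 otherwise. Its other probe sets did not fall: 1436343_at, about as bright, changed by 0.04 and 1438476_a_at by 0.06, and they differed from the brightest by 0.28 and 0.30 (limma adjusted p = 0.037 and 0.047). The mean of the 3 changed by -0.05 (limma adjusted p = 0.62), and over all probe sets none of the 3 was called. Chd1 changed by -0.03, Chd8 by 0.01, Baz1b and Baz2b by 0.01 each and Baz2a by -0.12, none past the threshold at the brightest probe set.

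The 3 classes differed little in counts at the brightest probe sets. Methylation had 5 of 19 genes lower (26.3%), acetylation 4 of 12 (33.3%) and remodelling 4 of 13 (30.8%). By the same rule 13.3% of all genes were lower, and 21.5% of those within the range of levels of the 44. The counts by role given above stand beside the same shares and rest on at most 6 genes each. The median changes were -0.15 for methylation, -0.09 for acetylation and -0.10 for remodelling. Under a further quantile normalization of the arrays the medians were -0.10, -0.06 and -0.03, and 28 of the 44 values were below 0. No test was made between the classes.

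The promoters of the 4 called genes with the smallest adjusted p, Arid1a, Kmt2c, Ehmt1 and Setdb1, are shown, and their GC content differed. Up to 50 bases past the start, the GC content was 88.0% for Kmt2c, 71.7% for Ehmt1, 61.3% for Arid1a and 55.3% for Setdb1. Of these Setdb1 alone lay below the median of the array genes, 58.7%. Each is the 250 bases before the most upstream start of the gene in RefSeq (GRCm38.p6), written 5' to 3' on the gene's own strand, and capitals mark every match, on either strand, to the GC box GGGCGG, the CCAAT box or the ETS core CCGGAAG. Arid1a lies at chr4:133756770-133757019, Kmt2c at chr5:25498784-25499033, Ehmt1 at chr2:24919610-24919859 and Setdb1 at chr3:95357203-95357452, all on the minus strand.
Arid1a: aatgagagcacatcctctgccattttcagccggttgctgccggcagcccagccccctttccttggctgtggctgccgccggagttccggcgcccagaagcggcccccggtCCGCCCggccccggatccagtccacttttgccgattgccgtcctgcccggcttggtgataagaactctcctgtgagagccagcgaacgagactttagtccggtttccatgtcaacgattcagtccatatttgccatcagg
Kmt2c: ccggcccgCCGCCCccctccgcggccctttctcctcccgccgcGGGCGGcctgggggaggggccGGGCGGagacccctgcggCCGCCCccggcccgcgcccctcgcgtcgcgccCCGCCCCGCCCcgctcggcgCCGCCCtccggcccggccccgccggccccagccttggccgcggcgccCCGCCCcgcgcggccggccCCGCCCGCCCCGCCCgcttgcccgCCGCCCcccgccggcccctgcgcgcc
Ehmt1: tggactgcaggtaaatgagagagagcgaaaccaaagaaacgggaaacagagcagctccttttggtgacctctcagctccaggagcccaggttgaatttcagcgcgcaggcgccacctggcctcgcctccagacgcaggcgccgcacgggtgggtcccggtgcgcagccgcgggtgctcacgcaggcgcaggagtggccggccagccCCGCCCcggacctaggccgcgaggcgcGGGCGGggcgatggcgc
Setdb1: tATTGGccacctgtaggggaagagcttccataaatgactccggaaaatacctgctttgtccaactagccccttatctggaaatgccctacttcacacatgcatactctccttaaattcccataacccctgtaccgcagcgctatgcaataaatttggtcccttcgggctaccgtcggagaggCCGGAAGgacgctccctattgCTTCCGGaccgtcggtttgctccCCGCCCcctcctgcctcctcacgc

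A promoter window of 300 bases, 250 before and 50 after the start, was found for 35 of the 44 genes. Their median GC content was 67.7%, against 58.7% for the 14452 array genes with a window, and was 71.7% for the 11 genes with a lower level that had one. The GC box, the letters bound by SP1-type factors, was present in 27 of 35 windows (77.1%) and in 11 of 11 of those with a lower level, against 54.0% of all windows. The Kmt2c promoter above is the densest of the 4, with 12 copies. CCAAT was found in 42.9% of the chromatin gene windows and 38.4% of all, and the ETS core in 11.4% and 13.8%. TATAAA, the TATA box, was in 1 of 35 windows, against 9.87% of all. The palindromic NRF1 site was in 1 of 35, against 1.59% of all. GC-rich windows hold more GC boxes by composition, and these are matches of letters, described without a test.

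Most of the genes were measured more than once: 35 had several probe sets, up to 6 each, which gave 80 probe sets dimmer than the brightest of their gene. Each probe set reads one stretch of a transcript, so probe sets of 1 gene can read different 3' ends or splice forms. Counting all 124 probe sets, 38 were lower and 6 higher in old follicles at an adjusted p of at most 0.05 in limma over 34945 probe sets, of which 13.8% were lower and 8.95% higher, and 2 were lower by at least 2-fold, against 0.552%. Without old replicate 3, 24 were lower. Of the 80 dimmer probe sets 26 were lower (32.5%) and 6 higher (7.50%), against 15.4% and 8.54% of all dimmer probe sets. A lower probe set was found for 24 genes, 12 of which were not called at their brightest probe set. Both a lower and a higher one were found for 5 genes, Suz12, Kdm6b, Chd1, Baz1b and Baz2b. Such counts per gene grow with the number of probe sets of a gene. The same counts over all genes were not made, so these are a description. The only genes with several probe sets that were all lower were Arid1a and Baz1a, each with 2.

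Kmt2a and Baz2b were the 2 chromatin genes with a probe set that fell more than 2-fold, and for Baz2b this rests on a dim one. For Kmt2a, the H3K4 methyltransferase that maintains Hox gene expression, probe set 1452377_at measured 7.55, 7.51 and 7.45 in young follicles and 6.31, 6.35 and 6.36 in old follicles. The brighter probe set of the same gene, 1427283_at, measured 7.87, 7.82 and 7.86 in young follicles and 7.65, 7.88 and 7.78 in old follicles. The dimmer probe set changed by -1.17 (SE 0.06), so that its intensity fell by 55.5%, while the groups of the brighter one overlapped, and the difference between both, -1.09, passed the test (SE 0.09, limma adjusted p = 0.0002 over 16752 pairs).

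Baz2b, a bromodomain protein that reads acetylated histones, had 5 probe sets. Its brightest, 1435240_at, measured 7.85, 8.16 and 8.10 in young follicles and 8.11, 8.08 and 7.97 in old follicles, with overlap. The dim probe set 1440984_at measured 4.68, 4.43 and 4.73 in young follicles and 3.37, 3.12 and 3.07 in old follicles, a change of -1.43 (SE 0.11). The old values lie about the lower quartile of all probe sets on these arrays, 3.20 to 3.24, and whether such a level is above background was not analysed here, so the size of the fall is uncertain. With 16 added to the intensity the change was -0.69, under 2-fold, and a filter on mean levels under 5 removes the probe set. Another dim one, 1445048_at, measured 4.57, 4.59 and 4.56 in young follicles and 4.82, 4.97 and 5.05 in old follicles, a rise of 0.37. The gene's probe sets therefore changed in both directions, and the first of these differed from the brightest by -1.44 (SE 0.14, limma adjusted p = 0.0004).

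Suz12 had 6 probe sets, of which 3 were lower and 1 higher. Beside its brightest, which fell by 0.20, probe set 1427253_s_at measured 9.11, 9.18 and 9.11 in young follicles and 8.37, 8.32 and 8.36 in old follicles, a change of -0.78 (SE 0.06). A further probe set, 1452364_at, fell by 0.71 from 7.89, 7.81 and 7.89 to 7.10, 7.18 and 7.17. Both fell more than the brightest probe set did, with differences of -0.58 and -0.51 (limma adjusted p = 0.0022 and 0.0040). The dimmest, 1449661_at, rose by 0.37 from 4.90, 4.85 and 4.89 to 5.35, 5.19 and 5.22.

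Smarca5 and Baz1b, an ISWI motor and a partner of ISWI motors, had no call at the brightest probe set and lower dimmer ones. For Smarca5 the brightest, 1424206_at, measured 9.98, 10.02 and 10.01 in young follicles and 10.05, 10.08 and 10.04 in old follicles, whereas 1424207_at, almost as bright, measured 9.94, 9.82 and 9.87 and then 9.33, 9.36 and 9.39. The second of these fell by 0.51 (SE 0.06), and the difference between the pair was -0.57 (SE 0.09, limma adjusted p = 0.0030). For Baz1b, probe set 1450068_at fell by 0.52 from 6.63, 6.55 and 6.56 to 5.88, 6.13 and 6.15, a difference of -0.53 from the brightest (limma adjusted p = 0.010). For Baz1a, whose brightest fell by 0.30, probe set 1447930_at fell by 0.83 from 8.24, 8.13 and 8.17 to 7.37, 7.25 and 7.42. For Chd1, a motor of active promoters, 1420990_at fell by 0.74 from 5.85, 5.99 and 5.98 to 5.25, 5.29 and 5.08, and 1431166_at rose by 0.33.

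Other genes without a call at the brightest probe set also had a lower dimmer one. For Suv39h2, probe set 1422979_at fell by 0.49 from 6.57, 6.56 and 6.56 to 5.96, 6.03 and 6.24. For Kdm5b, a demethylase of H3K4 like Kdm5a, 1457482_at fell by 0.45 from 5.83, 5.96 and 5.96 to 5.36, 5.52 and 5.50. For Kmt2e, which binds methylated H3K4, 1427236_a_at fell by 0.38 from 8.43, 8.51 and 8.47 to 8.12, 8.10 and 8.04. In these 3 genes the old samples lay wholly below the young ones at that probe set. For Hdac2, 1449080_at fell by 0.34 from 8.56, 8.57 and 8.57 to 8.30, 8.10 and 8.29. Arid2 had 2 such probe sets, with changes of -0.30 and -0.26, and Sin3a had 1, with -0.28. Kdm6b, which removes methyl groups from H3K27, had 1 lower probe set, with a change of -0.27, and 1 higher, with 0.42. Among the genes that were called, Kmt2c was lower at 3 of its 4 probe sets and Crebbp at 2 of 4.

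Dim probe sets also differed in the other direction. Setdb1 probe set 1458215_at had a change of 0.29 (adjusted p = 0.058), against -0.41 at the brightest, and the difference of 0.70 passed the test (SE 0.13, limma adjusted p = 0.0057). Kdm5b probe set 1442278_at had a change of 0.50 (adjusted p = 0.077) and stood apart from the brightest by 0.68 (SE 0.20, limma adjusted p = 0.036), with its lowest value, 4.57, in young replicate 1. In all, the dimmer probe set fell more than the brightest in 11 of 80 pairs (13.8%) and was the higher of both in its change in 14 (17.5%), against 13.6% and 10.6% of all 16752 such pairs. The first share was near that of all pairs. Of all 16752 pairs, 168 (1%) were lower by at least 1 on the log2 scale, and of the 80 pairs here 2 were, those of Kmt2a and Baz2b. With 16 added to the intensity these 2 differences were -0.95 and -0.70, and with the filter on mean levels under 5 only that of Kmt2a was left. Leaving out 1 sample, whichever it was, took the 14 pairs to between 2 and 8, with 2 when young replicate 2 was left out.

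**Figure D2:**
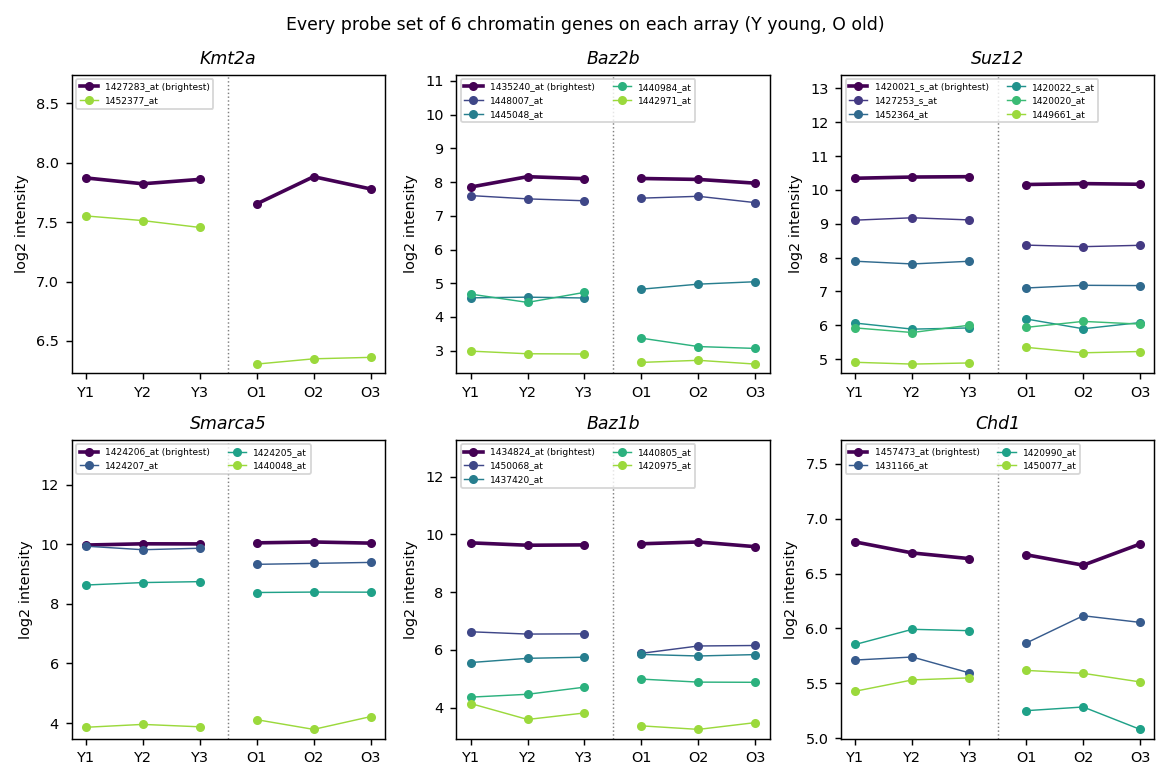
Log2 intensity of every probe set of Kmt2a, Baz2b, Suz12, Smarca5, Baz1b and Chd1 on the 3 young (Y) and 3 old (O) arrays, with the brightest probe set as a thick line; lines join the arrays of 1 age only to link the points. The brightest lines stay level or nearly so while 1 or more dimmer lines step down, most of all in Kmt2a, with a change of -1.17, and in Baz2b, with -1.43 (-0.69 with 16 added to the intensity).

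All 6 higher probe sets, of Kdm4a, Kdm6b, Suz12, Chd1, Baz1b and Baz2b, had a mean level under 6. That value was chosen after their levels were seen, which fixed the count of 0 higher above it, so the split is a description. Of the 44 dimmer probe sets under this level 6 were lower and 6 higher, with a median change of 0.05, against 9.77% lower and 8.55% higher among all dimmer probe sets under 6. Of the 36 at or above it, 20 were lower and 0 higher, with a median of -0.27, against 28.0% and 8.50% of all such probe sets and a median of -0.08. Over all dimmer probe sets the share higher was thus about the same on both sides of 6. The lower quartile of all probe sets was 3.13 to 3.14 in young and 3.20 to 3.24 in old follicles. The 3' minus 5' control value rose over the same comparison, and its part in the difference between probe sets was not tested.

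**Figure D3:**
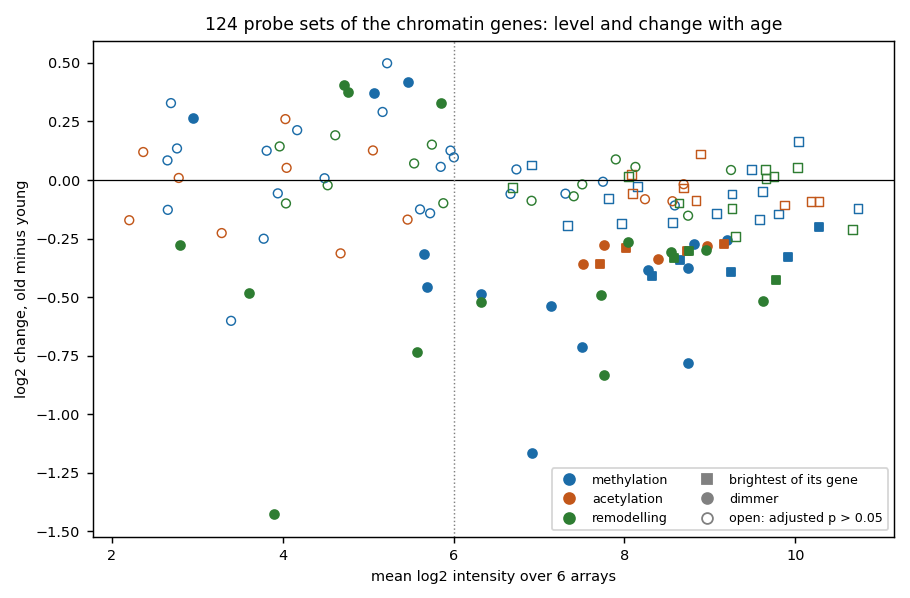
Change with age of the 124 probe sets against their mean log2 level, with squares for the brightest probe set of a gene, circles for dimmer ones, filled symbols for an adjusted p of at most 0.05 and a dotted line at a level of 6, chosen after the levels were seen. Left of the line filled symbols lie on both sides of 0, and right of it all of them lie below 0.

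Paralogs were compared within each array, as the level of the first minus that of the second at the brightest probe sets. In 4 of 11 pairs the old samples did not overlap the young ones, each with p = 0.1 by exact permutation (two-sided). This is the smallest value the design can give, so that no pair could pass 0.05 before or after adjustment over the 11. Such gaps were common. Of the 16752 differences between a dimmer and a brightest probe set, 3850 were wholly lower in old follicles and 3233 wholly higher. Among single genes the shares were 23.7% and 18.9%. The share over other pairs of genes was not counted. Ehmt1 minus Ehmt2 was 0.76, 0.85 and 0.75 in young follicles and 0.48, 0.52 and 0.54 in old follicles, a change of -0.27. Kmt2c minus Kmt2d went from -0.29, -0.25 and -0.13 to -0.49, -0.43 and -0.42, a change of -0.23. In both pairs the first gene fell relative to the second. Baz1a minus Baz1b changed by -0.31 and Kdm5a minus Kdm5b by -0.16, again without overlap, although with the mean of all probe sets of each gene only 3 of the 11 pairs were without overlap.

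The other 7 pairs overlapped. Kat6a minus Kat6b had the largest of their changes, 0.26 (exact permutation p = 0.2), from 0.65, 0.50 and 0.48 to 0.64, 0.83 and 0.91. Smarca2 minus Smarca4 changed by -0.14, Baz2a minus Baz2b by -0.13, Ezh1 minus Ezh2 by 0.09 and Hdac1 minus Hdac2 by 0.04. In the pairs with 2 called genes the difference was small, -0.03 for Ep300 minus Crebbp and -0.09 for Arid1a minus Arid1b. With 3 samples in a group, an overlap does not show that the paralogs changed alike.

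**Figure D4:**
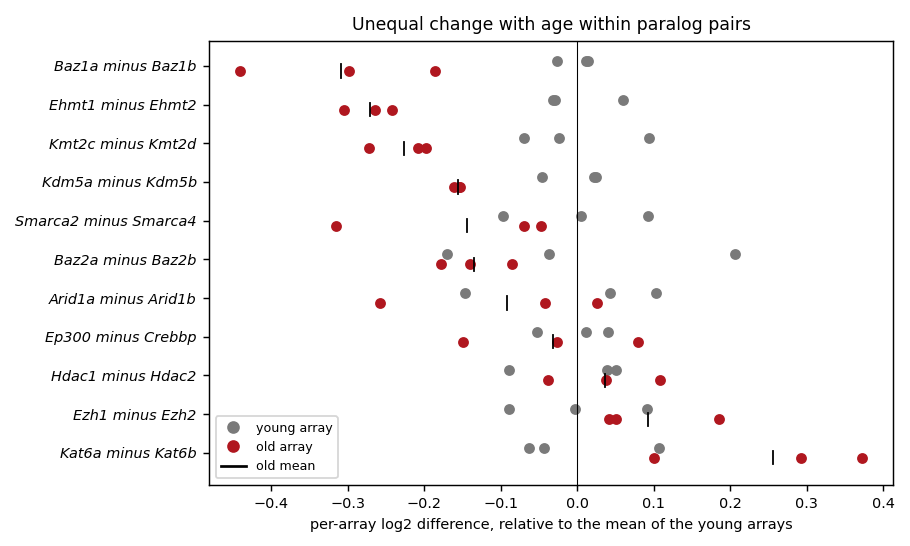
Difference between paralogs on each array, relative to the mean of the 3 young arrays, on the log2 scale. Old arrays (red, with their mean as a black bar) lie wholly left of the young arrays (grey) for Baz1a, Ehmt1, Kmt2c and Kdm5a minus their paralogs, with mean changes from -0.31 to -0.16, and overlap them in the other 7 pairs.

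Other chromatin genes were read from a list of 157, of which 151 were measured: 32 were lower, 3 higher and 116 passed neither way, with a median change of -0.05. The 21.2% lower lay between the 13.3% of all genes and the 21.5% of genes within the range of levels of the 44, and the 1.99% higher lay under the 10.1% and 8.88% of these. By class, 13 of 56 methylation genes (23.2%), 10 of 47 acetylation genes (21.3%) and 9 of 48 remodelling genes (18.8%) were lower, and 1 of each class was higher. Mtf2, a Polycomb-like partner that recruits repressive complex 2, had the largest change at the brightest probe sets, -0.59 (SE 0.05, limma adjusted p = 0.00033), beside changes of -0.49 for the demethylase Kdm1b, which oocytes need for imprints, and -0.45 for the arginine methyltransferase Prmt5. In acetylation the smallest p-values belonged to the deacetylase Hdac11, at -0.52, the NuRD subunit Gatad2a, at -0.31, and Hdac8, at -0.36 with a dim level of 4.37 in young follicles. In remodelling they belonged to the motor Smarcad1, at -0.48, the PBAF subunit Pbrm1, at -0.43, and Dpf1, at -0.50. The 3 higher genes were the demethylase Kdm2b, by 0.55, the SWI/SNF subunit Smarcd2, by 0.29, and the coactivator Ncoa3, by 0.26, and they are named here because they were few. Dimmer probe sets of Rbbp4, Mbd2 and Kdm5c fell more than 2-fold, by 1.51, 1.15 and 1.15, and all 3 had mean levels under 5. These were 3 of 250 dimmer probe sets of the listed genes, a share similar to the 170 of 16752 over all genes.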

How the data were processed

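Total RNA of mouse ovarian secondary follicles was measured on 6 Affymetrix Mouse Genome arrays. The deposited values are linear intensities that the authors made with RMA (version not given in the sources used here), which includes quantile normalization, so log2 was taken first. Probe sets were named from the platform's annotation table, with symbols updated through RefSeq for 18032 of 18194 gene IDs (99.1%). Left out were 932 probe sets with more than 1 symbol, 9211 without one and 13 controls with 1 symbol. Old and young samples were compared with limma 3.58.1 under R 4.3.3, as a two-sided moderated test with Benjamini-Hochberg adjustment (over 18193 genes, over 34945 probe sets, and over 16752 differences between dimmer and brightest probe sets). The same steps were run on simulated data with independent noise on each array. That simulation held no shift in RNA quality or cell mix between the ages, so it does not bear on such differences. The number of arrays limits the precision. A call needed an adjusted p of at most 0.05, and a 2-fold call also a fold of at least 2. Paralog pairs and control values were compared by exact permutation tests. The members and gene lists were chosen with earlier results of these data known. Named in the text are members with a 2-fold probe set, the 2 with the smallest p in each role, the 6 with the largest difference between probe sets, all paralogs, and in each wider class the 2-fold genes and the 3 with the smallest p. Other members are named to account for all of them. Alternatives were SAM, other normalizations, filters, priors and weights, the replicate number as a block, other choices of probe set or fold, and leaving out each sample.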

Additional observations from a re-analysis of the deposited data

How the results depend on the processing

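No gene or probe set called in the comparisons above changed direction under any alternative run. Genes without a call at the brightest probe set were not counted in this. Of these, Kdm6b was called lower (-0.27) without probe sets whose name ends in _s_at or _x_at. With the probe set of smallest p it was called higher (0.42). Smarca5, Baz1b and Baz2b, with values above 0 at the brightest, were called lower with the probe set of smallest p. The 13 lower genes became 20 with an eBayes trend, with and without robust priors, 24 with the probe set of smallest p, and 8 to 11 with 1 sample left out, against 9 after quantile or cyclic loess normalization and 11 by SAM. Deviations from the group means correlated by -0.0003 to 0.05 between same-numbered samples and by -0.085 to 0.063 between others. With 3 samples in a group, this does not decide whether the replicate numbers of the labels pair the samples. With the replicate block 9 genes were lower, without Suz12, Kat6b, Ep300 and Chd4. The 0 higher genes became 1, Kdm1a, after quantile or loess normalization, with the filter at a level of 5, with 16 added to the intensity, with an eBayes trend with and without robust priors and with array weights, 2 with the probe set of smallest p, and 0 to 1 with 1 sample left out. The probe set of smallest p also gave 2 genes lower by 2-fold. Of the probe sets, 24 to 33 were lower and 3 to 7 higher with 1 sample left out, and the replicate block gave 35 and 5. The 2 probe sets lower by 2-fold became 1 with the filter or with 16 added, and 6 at a fold of 1.5. Pairs with the dimmer probe set higher, 14, became 8 after quantile or loess normalization, 23 with 16 added, 11 with the replicate block and 2 to 8 with 1 sample left out, and the 2 pairs lower by at least 1 became 1 with the filter and 0 with 16 added. Without probe sets whose name ends in _s_at or _x_at, 1 pair was higher by at least 1. Paralog pairs without overlap numbered 3 with the mean of all probe sets and 4 to 6 with 1 sample left out. The causes of these shifts were not tested. Leaving out 1 sample changes both the number of samples and which of them remain. Dim probe sets limit what the array can show, since 44 of the 80 dimmer ones lay under a level of 6.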
